A study of Mus musculus with 24 samples.

Results

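The matrix metalloproteinase (MMP), ADAMTS and TIMP genes were described in whole ears of mice that carried a Card14 E138A knock-in and in wild-type ears. The members were all rows of the gene count table whose mouse symbol starts with Mmp, Adamts or Timp followed directly by a digit, which gave 46 of 51912 genes, made up of 23 Mmp, 19 Adamts and 4 Timp genes. Of these, 17 Mmp, 16 Adamts and 4 Timp genes, 37 in all, passed the filter on low counts, as did 17287 genes of the whole table.

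MMPs are secreted or membrane-bound zinc proteases that cut collagens, proteoglycans and other matrix proteins, and most are made as inactive proenzymes. ADAMTS proteases carry a disintegrin-like domain and thrombospondin repeats, and individual members trim procollagens, cut large proteoglycans such as aggrecan and versican, or act on microfibril proteins. TIMPs bind the active site of MMPs, and some also that of certain ADAMTS proteases, and block it. In skin, fibroblasts, keratinocytes and infiltrating leukocytes each express their own set of these genes.

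PolyA RNA of whole ears of C57BL/6 mice was sequenced in 4 groups of 6 libraries: CARD14E138A and wild type at 1 month, and CARD14E138A and wild type at day 5, with time counted from the first of the tamoxifen injections that every group received. In the knock-in, tamoxifen acts through CreERT2 to switch on Card14 carrying the E138A change from its own locus, and the series was set up to study early and long-lasting effects of this psoriasis-associated mutation, described there as leaving NF-kB signalling on. The sources used here do not give the promoter that drives CreERT2, whether wild-type animals carried CreERT2, or the age of the animals. The labels do not say that the libraries came from separate animals, so p-values measure the spread between these libraries. In bulk tissue, fewer cells of a type and less RNA per cell cannot be told apart.

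Total counts per library were 20608312 to 23022178 in mutant and 19255037 to 23905033 in wild-type ears at 1 month, and 16803734 to 18852993 in mutant and 15661568 to 16998934 in wild-type ears at day 5. Levels are CPM, counts per 1000000 counts of a library scaled by the trimmed mean of M-values (TMM). Card14 was measured at 9.93 to 25.3 CPM in mutant and 32.9 to 49.9 CPM in wild-type ears at 1 month, and at 35.1 to 65.4 CPM in mutant and 34.6 to 54.2 CPM in wild-type ears at day 5, and its level does not show whether the altered allele was read. Summed basal keratinocyte markers lay at 11410 to 23380 CPM and summed cartilage markers at 157 to 874.6 CPM over all libraries, so the tissue's defining markers were present. Some 1 month libraries stood apart. The rank correlation, over genes, of a library's deviation from each gene's median with the gene's GC content exceeded 0.4 in wild-type replicate 2 and mutant replicates 1 and 6, and exceeded 0.3 also in wild-type replicates 4 and 5 and mutant replicate 2. The day 5 libraries lay between -0.316 and 0.159. Leaving out these 6 libraries left 3 mutant and 3 wild-type ears at 1 month. Where leaving out these 6, or the 3 above 0.4, changed the call of a member, the value without them is given beside it.

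At 1 month 20 of the 37 members tested were higher and 6 lower in mutant than in wild-type ears by edgeR's quasi-likelihood test at a Benjamini-Hochberg adjusted p below 0.05. That was 70.3% of the members, against 47.1% of all 17287 genes tested, of which 25.5% were higher and 21.5% lower. At day 5 the members were called in both directions alike, 14 higher and 14 lower, or 75.7%, against 40.9% of all genes, with 20.7% higher and 20.2% lower. The median log2 fold change of the members was 0.74 at 1 month and -0.27 at day 5, beside 0.05 and -0.02 over all genes. The difference between these effects, 1 month minus day 5, was called in 17 members, 14 higher and 3 lower (45.9%, against 8.77% of all genes, of which 4.68% were higher and 4.09% lower). Without the 6 libraries that stood apart, 19 members were higher and 6 lower at 1 month. In the day 5 comparison, whose own libraries are not among these, 14 were then higher and 17 lower. Scaling by total counts alone turned the balance over all genes at 1 month to 3828 higher and 4257 lower, against 4416 and 3723 with TMM, and left 19 members higher and 7 lower. The day 5 balance became 3332 higher and 3766 lower genes, against 3579 and 3489, with 13 members higher and 17 lower. In the interaction it gave 746 higher and 801 lower genes, against 809 and 707, with 12 members higher and 3 lower.

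**Figure D1:**
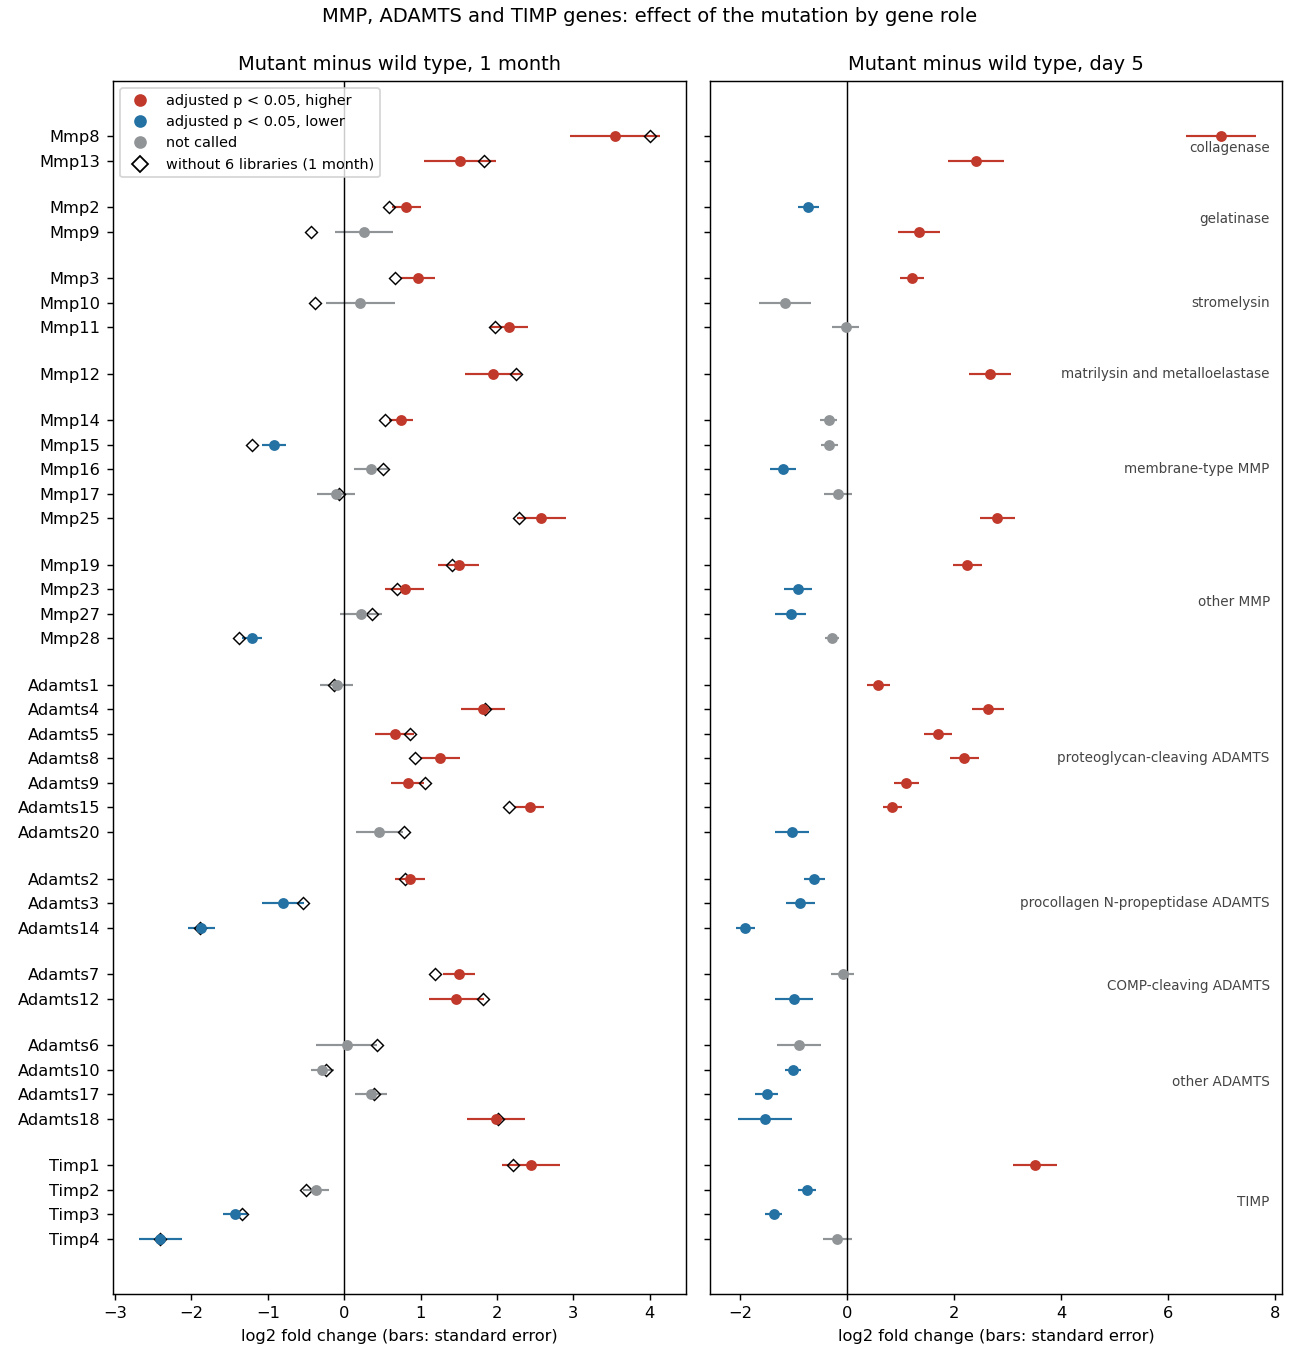
Log2 fold change of each tested member, mutant minus wild type, at 1 month (left) and day 5 (right), ordered by role. Bars are standard errors, colours mark calls at an adjusted p below 0.05, and open diamonds give the 1 month value without the 6 libraries with a high GC correlation. Timp1, Mmp8, Mmp25 and Adamts4 lie right of 0 at both times, Timp3 and Adamts14 left of 0 at both.

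Of the 23 Mmp genes, 10 lie side by side within 427072 bases of chromosome 9 (GRCm38, 7272514 to 7699585), in the order Mmp13, Mmp12, Mmp1b, Mmp3, Mmp1a, Mmp10, Mmp8, Mmp27, Mmp20 and Mmp7. This group holds the collagenases, which cut fibrillar collagen, the stromelysins Mmp3 and Mmp10, the macrophage elastase Mmp12 and the matrilysin Mmp7. Promoter windows from RefSeq (GRCm38.p6), 250 bases before to 50 after each start, were searched on both strands for TGAGTCA, whose reverse complement is TGACTCA, the classical recognition sequence of AP-1 transcription factors. It stood in a window of 7 of these 10 genes and of 0 of the 22 other members with a window, against 5.2% of 32851 windows of the same length over all genes. Members were counted by gene, with a match in any of their windows, and the share over all genes by window. The first bases of the matches lay between positions -93 and -35 from the start, and Mmp8, Mmp20 and Mmp27 had none. Of the 46 members 32 matched a window. A match describes the sequence and is not evidence of binding. The stretches below run from 110 bases before to 20 after the start on the plus strand, at chr9:7272404-7272533 for Mmp13, chr9:7347264-7347393 for Mmp12 (the downstream of its windows; the other held no match), chr9:7445712-7445841 for Mmp3, chr9:7502232-7502361 for Mmp10 and chr9:7558319-7558448 for Mmp8. They are shown because 4 of the 6 tested neighbours rose and others did not, with and without the motif. Capitals mark TGAGTCA or TGACTCA.
Mmp13: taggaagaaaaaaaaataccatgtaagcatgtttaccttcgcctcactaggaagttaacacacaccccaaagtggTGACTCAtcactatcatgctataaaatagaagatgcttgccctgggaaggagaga
Mmp12: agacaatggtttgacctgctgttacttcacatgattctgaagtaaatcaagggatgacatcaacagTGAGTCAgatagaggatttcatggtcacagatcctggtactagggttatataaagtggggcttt
Mmp3: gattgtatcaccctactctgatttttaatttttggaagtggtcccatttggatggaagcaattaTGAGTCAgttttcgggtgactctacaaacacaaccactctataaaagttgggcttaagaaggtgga
Mmp10: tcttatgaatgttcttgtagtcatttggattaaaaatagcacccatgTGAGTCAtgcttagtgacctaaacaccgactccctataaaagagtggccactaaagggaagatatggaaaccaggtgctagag
Mmp8: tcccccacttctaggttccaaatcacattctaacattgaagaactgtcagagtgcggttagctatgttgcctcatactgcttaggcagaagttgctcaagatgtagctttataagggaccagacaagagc

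Among the 6 tested genes of this region, Mmp8, Mmp12, Mmp13 and Mmp3 were higher in mutants at both times, while Mmp10 was not called and Mmp27 was lower at day 5. Of these 6, Mmp3, Mmp10, Mmp12 and Mmp13 hold the motif in a window, and Mmp8 and Mmp27 do not. Mmp8 had the largest fold change of the 37 members at both times. Mmp10, which lay below 1 CPM in all libraries, was not called at either. A link between the motif and these levels was not tested.

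**Figure D2:**
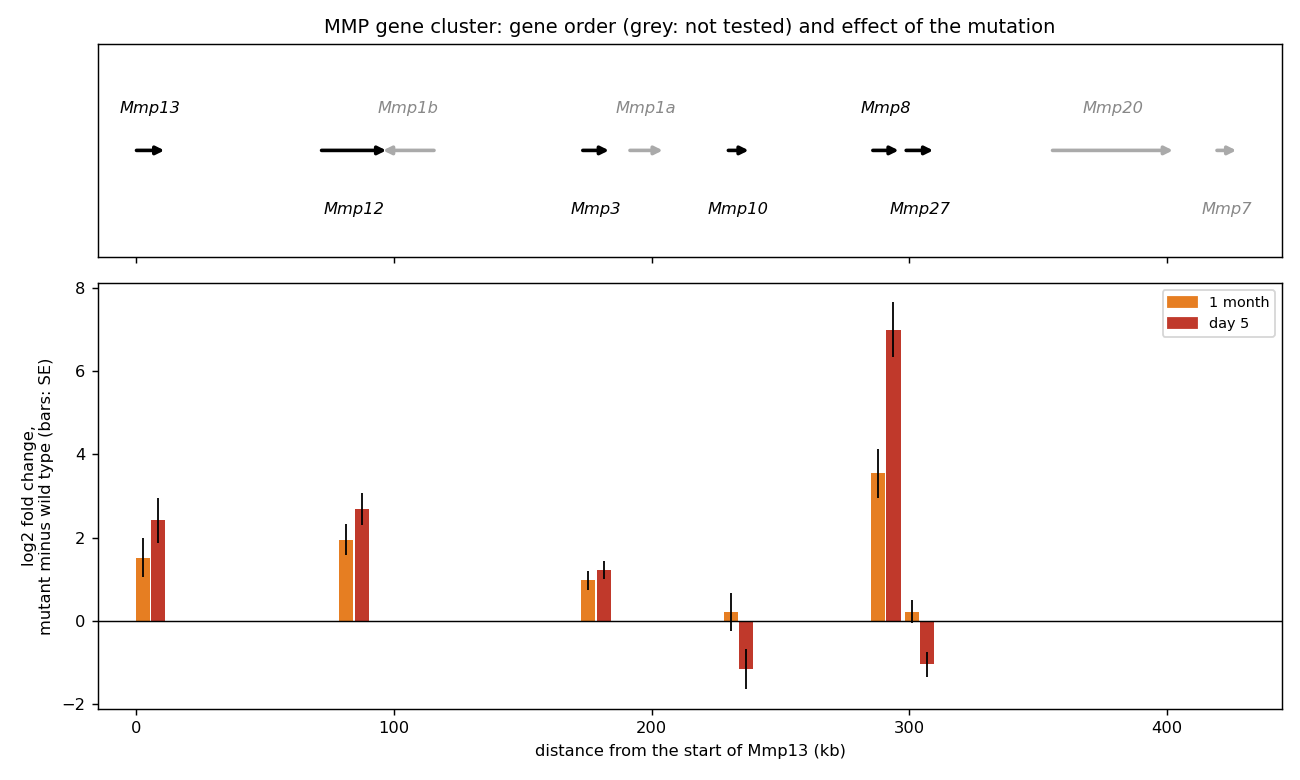
The MMP genes of chromosome 9 drawn to scale as arrows in their direction of transcription (top, grey where not tested), with distance from the start of Mmp13 in kb, and the log2 fold change of the tested genes, mutant minus wild type, at 1 month and day 5 (bottom, bars from 0, lines standard errors). Mmp8 reaches 3.54 at 1 month and 6.99 at day 5, beside its neighbour Mmp27 at 0.22 and -1.05.

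Mmp8, the neutrophil collagenase (ENSMUSG00000005800, chr9:7558456-7568485), measured 0.973, 1.67 and 2.34 CPM (lowest, median and highest of 6 libraries) in mutant ears at 1 month, against 0.0391, 0.101 and 0.436 CPM in wild-type ears. At day 5 it measured 2.05, 11.2 and 20.4 CPM in mutant ears, against 0, 0.0906 and 0.123 CPM in wild-type ears, where 8 counts were read in all. Every mutant library lay above every wild-type library at both times, and mutant replicates 1 and 3 were far below the other day 5 mutants. Its log2 fold change was 3.54 ± 0.59 (SE) at 1 month (edgeR adjusted p = 2.9e-05) and 6.99 ± 0.66 at day 5 (edgeR adjusted p = 2.54e-08). Their difference, -3.45 ± 1.02, was called (edgeR adjusted p = 0.0349), but not without the 6 libraries that stood apart (-2.97, edgeR adjusted p = 0.209). Leaving out wild-type replicate 3, 4 or 6 of 1 month, or wild-type replicate 1, 4 or 5 of day 5, also ended that call (-2.79 without wild-type replicate 4 of 1 month).

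Mmp25, a membrane-anchored MMP first known from leukocytes (ENSMUSG00000023903, chr17:23628311-23645277), had 5.43, 6.62 and 13.3 CPM in mutant ears at 1 month, against 0.727, 1.29 and 2.3 CPM in wild-type ears. At day 5 its levels were 2.85, 9.58 and 11.6 CPM in mutant ears and 0.849, 1.25 and 1.5 CPM in wild-type ears. The groups did not overlap at either time, which held for 11 members above and 5 below wild type at 1 month (21.2% of all genes did not overlap) and for 12 above and 13 below at day 5 (34.3% of all genes). Log2 fold changes were 2.58 ± 0.32 at 1 month (edgeR adjusted p = 6.78e-07) and 2.81 ± 0.33 at day 5 (edgeR adjusted p = 5.92e-07). They did not differ by the interaction test (-0.23 ± 0.45, edgeR adjusted p = 0.89).

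Mmp9, or gelatinase B, of neutrophils and keratinocytes (ENSMUSG00000017737, chr2:164940780-164955850), was higher in mutants at day 5 by 1.35 ± 0.39 (edgeR adjusted p = 0.00762), with 6.11, 29.5 and 37.4 CPM in mutant and 7.58, 9.76 and 12.3 CPM in wild-type ears. Mutant replicate 1 lay below all wild types, so the groups overlapped. Across the 1 month ears Mmp9 ran to 10.2, 14.8 and 56.5 CPM in mutant and 14.2, 18.7 and 25.9 CPM in wild-type libraries, and was not called (0.26 ± 0.38, edgeR adjusted p = 0.608). The mutants with a high GC correlation held 16.8, 31.2 and 56.5 CPM and the other mutants 10.2, 12.9 and 12.9 CPM. Without the 6 libraries the estimate was -0.44 (edgeR adjusted p = 0.421), and limma voom with sample weights gave -0.74 (adjusted p = 0.0336). The 1 month effect minus the day 5 effect of Mmp9 was not called (-1.09 ± 0.54, edgeR adjusted p = 0.266), but was called without mutant replicate 1 of 1 month (-1.57, edgeR adjusted p = 0.0365) and without the 3 (-1.9, edgeR adjusted p = 0.00916) or the 6 libraries (-1.78, edgeR adjusted p = 0.031).

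Of 10 neutrophil markers listed, 7 were tested, and 6 were higher and 0 lower at 1 month, when Mmp9 was not called, and 6 higher and 1 lower at day 5. Of all genes tested, 25.5% were higher and 21.5% lower at 1 month, and 20.7% higher and 20.2% lower at day 5. The lower marker was myeloperoxidase (Mpo, -2.08 ± 0.58, edgeR adjusted p = 0.00589). The summed level of the markers without S100a8 and S100a9, which keratinocytes also make, was 71.7 to 122.1 CPM in mutant and 4.19 to 17.5 CPM in wild-type ears at 1 month. At day 5 it was 48.9 to 292.1 CPM in mutant and 5.75 to 8.33 CPM in wild-type ears. The defining marker Ly6g did not pass the filter on low counts and was not tested. It had 0 counts in wild-type ears at day 5 and some in each of the other groups. Mutant replicates 1 and 3 of day 5 had the lowest marker sums, 48.9 and 64.8 CPM against 212.4 to 292.1 CPM in the other 4. They also had the lowest levels of that group for Mmp3, Mmp8, Mmp9, Mmp13, Mmp19, Mmp25, Adamts4, Adamts9 and Timp1. The other members called higher at day 5, Mmp12, Adamts1, Adamts5, Adamts8 and Adamts15, were lower in replicate 5 or 6 than in replicate 3. Among members called lower at day 5, replicates 1 and 3 were the highest mutants for Timp2, Timp3, Mmp16, Adamts14 and Adamts18. They were not for Mmp2, Mmp23, Mmp27, Adamts2, Adamts3, Adamts10, Adamts12, Adamts17 and Adamts20. The part of leukocyte number in these differences was not tested.

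Mmp12, the macrophage elastase (ENSMUSG00000049723, chr9:7344381-7369499), had 6.28, 15.4 and 32.1 CPM in mutant ears at 1 month and 1.97, 4.67 and 5.9 CPM in wild-type ears. It had 11, 14.1 and 22 CPM in mutant and 0.522, 2.66 and 4.41 CPM in wild-type ears at day 5. No library of a mutant reached down to the wild-type range. Effects on the log2 scale were 1.95 ± 0.37 at 1 month (edgeR adjusted p = 0.000142) and 2.68 ± 0.39 at day 5 (edgeR adjusted p = 9.84e-06). Monocyte and macrophage markers were higher for 11 of 12 genes and lower for 1 at 1 month, and higher for 10 of 12 at day 5. Of all genes tested, 25.5% were higher and 21.5% lower at 1 month, and 20.7% higher and 20.2% lower at day 5. The marker sums were 1068 to 2050 CPM in mutant and 420.5 to 1026 CPM in wild-type ears at 1 month. At day 5 they were 701.4 to 1700 CPM in mutant and 485.4 to 606.6 CPM in wild-type ears. The part of these cells in the Mmp12 difference was not tested. Mmp12 overlaps Mmp1b on the opposite strand, and the strand setting of the counting is not given in these sources.

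Mmp13, a collagenase made by mesenchymal cells and keratinocytes, rose at 1 month by 1.52 ± 0.47 (edgeR adjusted p = 0.0103) and at day 5 by 2.41 ± 0.53 (edgeR adjusted p = 0.000749). Its levels were low, 1.26, 3.77 and 5.57 CPM in mutant and 0.177, 0.959 and 3.1 CPM in wild-type ears at 1 month, and 1.25, 3.11 and 4.51 CPM in mutant and 0.196, 0.552 and 0.846 CPM in wild-type ears at day 5. Wild-type replicates reached into the mutant range at 1 month, and no libraries overlapped at day 5. The stromelysin Mmp3, which cuts many matrix proteins and activates other MMPs, rose by 0.97 ± 0.22 at 1 month (edgeR adjusted p = 0.000697) and by 1.22 ± 0.22 at day 5 (edgeR adjusted p = 9.74e-05), and the groups did not overlap at either time. Its levels were 62.1, 72 and 136 CPM in mutant and 33.3, 41.9 and 54.7 CPM in wild-type ears at 1 month, and 72.4, 99.6 and 161 CPM in mutant and 29.9, 48.6 and 55.5 CPM in wild-type ears at day 5. Without the 6 libraries the 1 month value was 0.66 (edgeR adjusted p = 0.0592). Mmp10, or stromelysin 2, lay below 1 CPM in all libraries and was not called, at 0.21 ± 0.45 at 1 month and -1.16 ± 0.49 at day 5 (edgeR adjusted p = 0.0637). Its day 5 value passed without wild-type replicate 1 (-1.31) or mutant replicate 5 (-1.71) of day 5, without the 3 libraries above 0.4 (-1.15, edgeR adjusted p = 0.0483), and with total counts (-1.22), limma voom (-1.16) or the GC correlation as a covariate (-1.14).

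**Figure D3:**
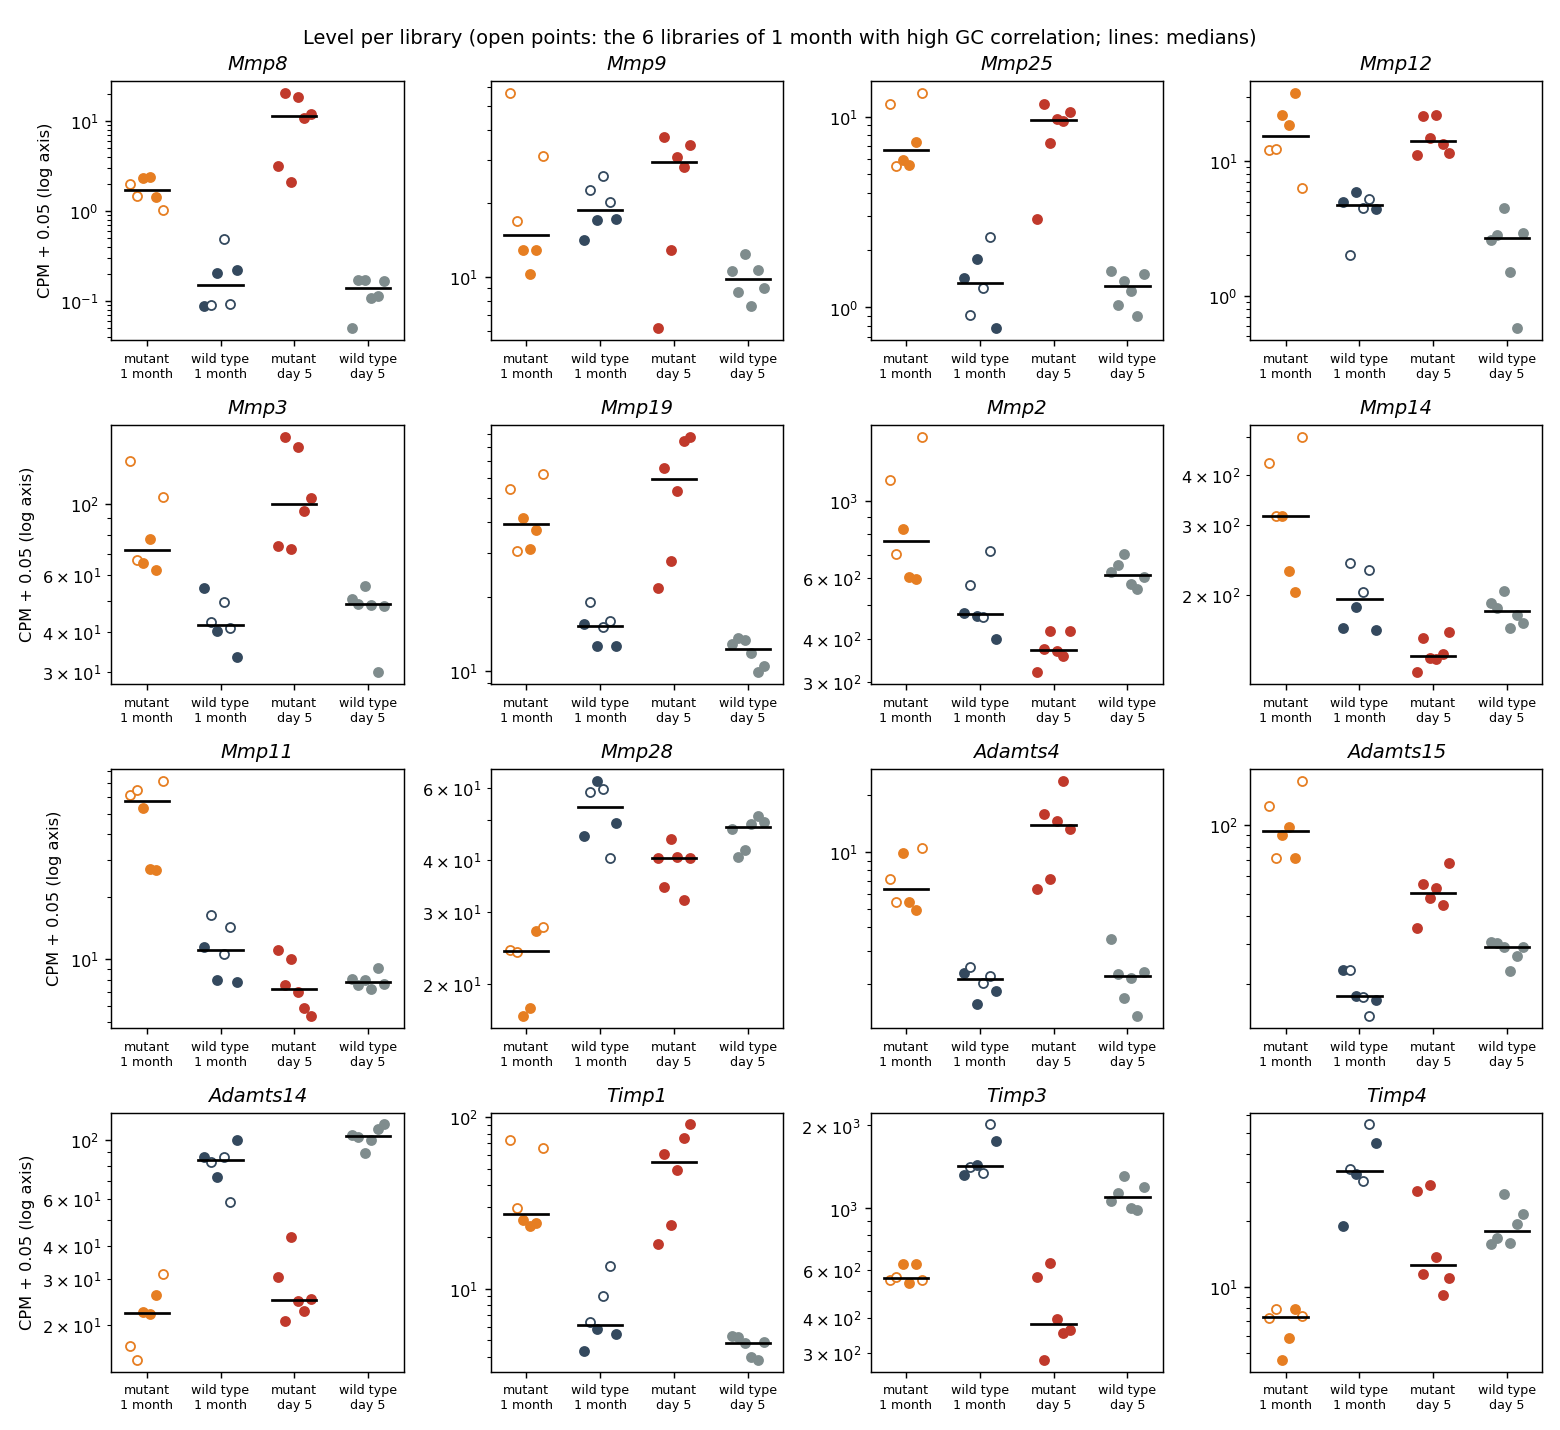
Level of 16 members in each library (CPM plus 0.05, log axis) by genotype and time. Points are libraries, lines are medians, and open points mark the 6 libraries of 1 month with a GC correlation above 0.3. Timp3 and Adamts14 lie apart between genotypes at both times, Mmp11 and Timp4 at 1 month only, and Mmp2 is below wild type at day 5 while its mutant median is above at 1 month.

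Mmp11, or stromelysin 3, an enzyme known from stromal fibroblasts (ENSMUSG00000000901, chr10:75923222-75936496), had 26.9, 57.4 and 72.2 CPM in mutant ears at 1 month, against 7.78, 11 and 16.3 CPM in wild-type ears. At day 5 it had 5.29, 7.18 and 11 CPM in mutant and 7.17, 7.73 and 9.01 CPM in wild-type ears. Mutant libraries thus all lay above wild type at 1 month, and at day 5 they lay on both sides of it. Mmp11 differed by 2.16 ± 0.25 on the log2 scale at 1 month (edgeR adjusted p = 1.93e-07) and by -0.02 ± 0.25 at day 5 (edgeR adjusted p = 0.955). The difference of 2.18 ± 0.35 had the smallest adjusted p of the members in the interaction test (edgeR adjusted p = 0.000187). Chchd10, which overlaps Mmp11 on the opposite strand, was not called at either time.

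Mmp2, the gelatinase A of fibroblasts (ENSMUSG00000031740, chr8:92827291-92853420), had 596, 767 and 1532 CPM in mutant and 400, 470 and 714 CPM in wild-type ears at 1 month. Its levels at day 5 were 320, 371 and 422 CPM in mutant and 558, 612 and 702 CPM in wild-type ears. The groups did not overlap at day 5, and at 1 month the highest wild-type library, replicate 5, exceeded 3 of the mutants. Mmp2 was thus higher at 1 month by 0.81 ± 0.19 (edgeR adjusted p = 0.00102) and lower at day 5 (-0.72 ± 0.19, edgeR adjusted p = 0.00374). The 1 month value was 0.42 without the 3 libraries above 0.4 (edgeR adjusted p = 0.023) and 0.59 without the 6 (edgeR adjusted p = 0.00178). The difference between times of Mmp2 was 1.52 ± 0.27 (edgeR adjusted p = 0.000524). It was 1.13 without the 3 (edgeR adjusted p = 0.000696) and 1.31 without the 6 libraries (edgeR adjusted p = 6.47e-05). The membrane-type Mmp14, which activates proMmp2 at the cell surface, had 204, 317 and 500 CPM in mutant and 164, 195 and 241 CPM in wild-type ears at 1 month, a difference of 0.74 ± 0.16 (edgeR adjusted p = 0.000574). That value was 0.47 without the 3 libraries (edgeR adjusted p = 0.00598) and 0.53 without the 6 (edgeR adjusted p = 0.00303). At day 5 Mmp14 had 128, 140 and 161 CPM in mutant and 165, 182 and 205 CPM in wild-type ears, which did not overlap but did not pass the test (-0.34 ± 0.16, edgeR adjusted p = 0.0971). It passed in 6 alternatives at -0.39 to -0.31, among them the fit of only the libraries compared (-0.33, edgeR adjusted p = 0.00133), limma voom (-0.31, adjusted p = 0.00184) and the fits without the 3 (-0.33, edgeR adjusted p = 0.02) or the 6 libraries (-0.35, edgeR adjusted p = 0.00409).

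Of the other membrane-type enzymes, Mmp15 fell at 1 month (-0.92 ± 0.16, edgeR adjusted p = 5.95e-05) with 13.1, 18.8 and 27.8 CPM in mutant and 29.1, 38.7 and 44.4 CPM in wild-type ears. It was not called at day 5 (-0.33 ± 0.16, edgeR adjusted p = 0.111), but was in 6 alternatives, among them without the 3 (-0.32, edgeR adjusted p = 0.0426) or the 6 libraries (-0.34, edgeR adjusted p = 0.0245). The difference between times of Mmp15 was not called over all libraries (-0.59 ± 0.23, edgeR adjusted p = 0.125). It was called without mutant replicate 6 of 1 month (-0.77, edgeR adjusted p = 0.0304), without the 3 or the 6 libraries (-0.88 in both), with the GC correlation as a covariate (-0.57, edgeR adjusted p = 0.00622) and with limma voom (-1.09, adjusted p = 4.58e-05). Mmp16 was lower at day 5 (-1.19 ± 0.24, edgeR adjusted p = 0.000322), at 0.573 to 1.07 CPM in mutant and 1.4 to 2.06 CPM in wild-type ears, and not called at 1 month (0.35 ± 0.22), though it was called there without wild-type replicate 5 (0.52, edgeR adjusted p = 0.0481) and with limma voom (0.7, adjusted p = 0.00165). Mmp17 was not called at either time. Mmp24 was not tested.

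Mmp28, or epilysin, an MMP of intact epidermis and of wounds (ENSMUSG00000020682, chr11:83440768-83463071), measured 16.7, 24 and 27.5 CPM in mutant and 40.4, 54 and 62.4 CPM in wild-type ears at 1 month. At day 5 it measured 32.1, 40.5 and 45 CPM in mutant and 40.8, 48.2 and 51.2 CPM in wild-type ears. All mutants lay below all wild types at 1 month, and the groups overlapped at day 5. On the log2 scale Mmp28 differed by -1.21 ± 0.13 at 1 month (edgeR adjusted p = 1.23e-07) and -0.27 ± 0.13 at day 5 (edgeR adjusted p = 0.11), and their difference of -0.94 ± 0.19 was called (edgeR adjusted p = 0.00183).

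Mmp19, which has been found in wounded and inflamed skin (ENSMUSG00000025355, chr10:128790910-128800824), had 30.6, 39.1 and 62.3 CPM in mutant and 12.6, 15.2 and 19 CPM in wild-type ears at 1 month. Its day 5 levels were 21.5, 59.4 and 88 CPM in mutant and 9.86, 12.3 and 13.6 CPM in wild-type ears, and the genotypes did not overlap at either time. Mmp19 rose on the log2 scale by 1.5 ± 0.27 at 1 month (edgeR adjusted p = 6.14e-05) and by 2.25 ± 0.27 at day 5 (edgeR adjusted p = 9.37e-07). Mmp23, a short MMP without the hemopexin domain, was higher at 1 month (0.79 ± 0.25, edgeR adjusted p = 0.0124) and lower at day 5 (-0.91 ± 0.26, edgeR adjusted p = 0.00704). Its 1 month call was lost without mutant replicate 6 (0.58) and without the 3 libraries whose GC correlation exceeded 0.4 (0.41, edgeR adjusted p = 0.195). Mmp27 was lower at day 5 (-1.05 ± 0.29, edgeR adjusted p = 0.00476) at 0.972 to 2.08 CPM in mutant and 2.29 to 3.26 CPM in wild-type ears.

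The ADAMTS genes that act on proteoglycans were mostly higher in mutants, 5 of 7 at 1 month and 6 of 7 at day 5, beside 25.5% and 20.7% of all genes, with Adamts20 lower at day 5. Adamts4, or aggrecanase 1 (ENSMUSG00000006403, chr1:171250421-171260637), had 4.89, 6.29 and 10.4 CPM in mutant ears at 1 month and 1.53, 2.08 and 2.42 CPM in wild-type ears. Day 5 levels were 6.29, 13.9 and 23.9 CPM in mutant and 1.31, 2.16 and 3.41 CPM in wild-type ears. Mutants lay above all wild types at both times, and day 5 replicates 1 and 3 were the lowest mutants. The fold changes on the log2 scale were 1.82 ± 0.29 at 1 month (edgeR adjusted p = 1.43e-05) and 2.64 ± 0.30 at day 5 (edgeR adjusted p = 2.98e-07).

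Adamts15, a versican- and aggrecan-cleaving enzyme (ENSMUSG00000033453, chr9:30899155-30922452), had 71.3, 94.3 and 157 CPM in mutant and 14.4, 17.6 and 23.1 CPM in wild-type ears at 1 month. At day 5 levels were 35.1, 50.3 and 68 CPM in mutant and 22.8, 29.1 and 30.5 CPM in wild-type ears. The gap between genotypes was wide at 1 month and narrow at day 5, and the groups did not overlap at either time. Its log2 fold change of 2.43 ± 0.19 at 1 month had the smallest adjusted p of the members (edgeR adjusted p = 9.34e-10), beside 0.85 ± 0.18 at day 5 (edgeR adjusted p = 0.000508). The difference was 1.58 ± 0.25 (edgeR adjusted p = 0.000202).

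Adamts8 (ENSMUSG00000031994, chr9:30942562-30963838), the next gene to Adamts15 among the members on chromosome 9, had 2.03, 2.78 and 6.52 CPM in mutant and 0.823, 1.44 and 1.95 CPM in wild-type ears at 1 month. It had 4.69, 5.8 and 7.99 CPM in mutant and 1.05, 1.27 and 1.79 CPM in wild-type ears at day 5. The genotypes did not overlap, and mutant replicate 6 was highest at 1 month. Log2 fold changes were 1.26 ± 0.26 at 1 month (edgeR adjusted p = 0.000376) and 2.19 ± 0.27 at day 5 (edgeR adjusted p = 1.13e-06). The difference, -0.93 ± 0.37, was not called (edgeR adjusted p = 0.141) but was called without mutant replicate 6 of 1 month (-1.28, edgeR adjusted p = 0.0123) and without the 3 (-1.29) or the 6 libraries (-1.25, edgeR adjusted p = 0.0164).

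Adamts5, or aggrecanase 2, rose at day 5 by 1.70 ± 0.26 (edgeR adjusted p = 1.9e-05), with 70.8 to 151 CPM in mutant and 25.4 to 49.4 CPM in wild-type ears. Its 1 month value of 0.66 ± 0.26 (edgeR adjusted p = 0.0404) was lost without 1 of wild-type replicates 2, 3 and 4 or mutant replicates 3, 4 and 5 of 1 month, or mutant replicate 3 or 4 of day 5, the lowest being 0.47 without mutant replicate 3 of 1 month. Adamts9 rose at both times, by 0.83 ± 0.22 at 1 month (edgeR adjusted p = 0.0038) and 1.11 ± 0.23 at day 5 (edgeR adjusted p = 0.000378). Adamts1, a versicanase, was higher at day 5 (0.59 ± 0.22, edgeR adjusted p = 0.0374) at 156 to 239 CPM in mutant and 112 to 162 CPM in wild-type ears. That call ended without wild-type replicate 2, 3 or 5 or mutant replicate 1, 2, 4 or 5 of day 5 (as low as 0.52, highest edgeR adjusted p = 0.0796). The difference between times of Adamts1 (-0.69, edgeR adjusted p = 0.206) was called without the 6 libraries (-0.71, edgeR adjusted p = 0.0329). Adamts20 was lower at day 5 (-1.02 ± 0.32, edgeR adjusted p = 0.0141) and not called at 1 month (0.46 ± 0.31).

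The procollagen N-propeptidases, which trim the ends of fibrillar procollagens, did not move alike. Adamts14 (ENSMUSG00000059901, chr10:61197112-61273438) had 14.8, 22.2 and 31.1 CPM in mutant and 58.7, 84.4 and 99.8 CPM in wild-type ears at 1 month. At day 5 it had 20.8, 24.9 and 43.2 CPM in mutant and 89.7, 104 and 115 CPM in wild-type ears. Every mutant library lay below every wild-type library by a wide gap at both times. Log2 fold changes were -1.87 ± 0.18 at 1 month (edgeR adjusted p = 1.82e-08) and -1.90 ± 0.18 at day 5 (edgeR adjusted p = 2.52e-08), the smallest adjusted p of the members at day 5.

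Adamts2, the main enzyme of this kind for type I procollagen, was higher at 1 month by 0.86 ± 0.20 (edgeR adjusted p = 0.000905) and lower at day 5 (-0.61 ± 0.20, edgeR adjusted p = 0.0159). It had 191, 272 and 502 CPM in mutant and 121, 146 and 237 CPM in wild-type ears at 1 month, and 100, 132 and 163 CPM in mutant and 181, 204 and 219 CPM in wild-type ears at day 5. The groups overlapped at 1 month and did not at day 5, and the difference of 1.48 ± 0.28 was called (edgeR adjusted p = 0.00124). The 1 month value of Adamts2 was 0.57 without the 3 libraries above 0.4 (edgeR adjusted p = 0.012) and 0.79 without the 6 (edgeR adjusted p = 0.00103). Adamts3 was lower at both times, at -0.80 ± 0.27 at 1 month (edgeR adjusted p = 0.018) and -0.87 ± 0.27 at day 5 (edgeR adjusted p = 0.0115). At 1 month that call was lost without wild-type replicate 5 (-0.65) and without the 6 libraries (-0.54, edgeR adjusted p = 0.0913).

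Adamts7 and Adamts12, which cut cartilage oligomeric matrix protein (COMP), were both higher at 1 month. Adamts7 (ENSMUSG00000032363, chr9:90163069-90208071) had 6.12, 8.42 and 17.3 CPM in mutant and 2.57, 3.45 and 4.27 CPM in wild-type ears at 1 month, and 3.08, 4.01 and 5.33 CPM in mutant and 3.82, 4.45 and 5.36 CPM in wild-type ears at day 5. The groups were apart at 1 month, with mutant replicate 6 highest, and overlapped at day 5. Adamts7 differed on the log2 scale by 1.5 ± 0.21 at 1 month (edgeR adjusted p = 2.9e-06) and by -0.08 ± 0.21 at day 5 (edgeR adjusted p = 0.803), and the difference was 1.57 ± 0.30 (edgeR adjusted p = 0.00107). Tbc1d2b, on the opposite strand over Adamts7 and far more abundant at 121.6 CPM, was higher at 1 month by 0.38 ± 0.12 (edgeR adjusted p = 0.0144).

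Adamts12 had 7.35, 10.8 and 26.6 CPM in mutant and 1.44, 5.36 and 8.29 CPM in wild-type ears at 1 month, and 3.08, 5.24 and 6.29 CPM in mutant and 6.73, 9.09 and 12.8 CPM in wild-type ears at day 5. Mutants of 1 month with a high GC correlation held 7.35 to 7.81 CPM, and the other mutants 13.8 to 26.6 CPM. On the log2 scale Adamts12 differed by 1.47 ± 0.36 at 1 month (edgeR adjusted p = 0.00147), 1.82 without the 6 libraries, and by -0.99 ± 0.36 at day 5 (edgeR adjusted p = 0.03). The day 5 call was lost without wild-type replicate 2 or 3 or mutant replicate 1 or 2, lowest in size at -0.89. The difference, 2.46 ± 0.50, was called (edgeR adjusted p = 0.00257).

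Of the remaining ADAMTS genes, Adamts17 (ENSMUSG00000058145, chr7:66839735-67153171), linked in humans to a syndrome of short stature and eye defects, had 3.07, 3.85 and 7.1 CPM in mutant and 2.11, 3.49 and 4.2 CPM in wild-type ears at 1 month. Day 5 levels were 1.67, 2.1 and 2.83 CPM in mutant and 5.29, 5.94 and 7.64 CPM in wild-type ears. The groups overlapped at 1 month and stood apart at day 5. It was lower at day 5 (-1.50 ± 0.22, edgeR adjusted p = 7.57e-06), not called at 1 month (0.35 ± 0.21, edgeR adjusted p = 0.177), and the difference was 1.85 ± 0.30 (edgeR adjusted p = 0.000237). Adamts10, related to Adamts17 and tied to fibrillin microfibrils, fell at day 5 (-1.0 ± 0.15, edgeR adjusted p = 1.11e-05). Its 1 month value of -0.29 ± 0.15 passed only without wild-type replicate 5 (-0.36) or mutant replicate 6 (-0.44) of 1 month among the libraries left out singly.

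Adamts18 was higher at 1 month by 1.99 ± 0.38 (edgeR adjusted p = 0.00015) and lower at day 5 (-1.53 ± 0.50, edgeR adjusted p = 0.016), with a difference of 3.52 ± 0.62 (edgeR adjusted p = 0.00062). Its levels were 1.82, 4.12 and 5.87 CPM in mutant and 0.442, 1 and 1.84 CPM in wild-type ears at 1 month, and only 0, 0.264 and 0.358 CPM in mutant and 0.347, 0.491 and 1.39 CPM in wild-type ears at day 5. The day 5 call ended without wild-type replicate 6 (-1.20, edgeR adjusted p = 0.0628). Adamts6 was not called at either time, although its day 5 value (-0.90 ± 0.41, edgeR adjusted p = 0.082) passed without mutant replicate 3 of day 5 (-1.13) or mutant replicate 6 of 1 month (-0.89). The day 5 value of Adamts6 also passed without the 3 (-0.89, edgeR adjusted p = 0.0111) or the 6 libraries (-0.90, edgeR adjusted p = 0.000549), in the fit of only the libraries compared (-0.88), with the GC correlation as a covariate (-1.01) and with limma voom (-1.01). Its difference between times (0.93 ± 0.57, edgeR adjusted p = 0.413) was called without the 6 libraries (1.33, edgeR adjusted p = 0.00937). At 1 month it had 0.73 to 1.61 CPM in the mutants with a high GC correlation and 4.57 to 6.45 CPM in the other mutants, against 2.05 to 3.15 CPM and 3.32 to 4.81 CPM in the wild types split the same way.

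The 4 inhibitors fell into different patterns, Timp1 higher at both times, Timp3 lower at both, Timp4 lower at 1 month and Timp2 lower at day 5. Timp1 (ENSMUSG00000001131, chrX:20870166-20874735), an inducible inhibitor, had 23.1, 27.2 and 73.4 CPM in mutant and 4.3, 6.06 and 13.5 CPM in wild-type ears at 1 month. At day 5 it had 18.2, 54.7 and 90.4 CPM in mutant and 3.79, 4.79 and 5.26 CPM in wild-type ears. All mutants lay above all wild types at both times, with replicates 1 and 6 highest among the 1 month mutants and replicates 1 and 3 lowest among the day 5 mutants. Timp1 rose on the log2 scale by 2.44 ± 0.38 at 1 month (edgeR adjusted p = 1.39e-05) and by 3.51 ± 0.41 at day 5 (edgeR adjusted p = 4.59e-07). The 1 month value was 1.71 without the 3 libraries above 0.4 (edgeR adjusted p = 0.000571) and 2.21 without the 6. The difference between times of Timp1, -1.07 ± 0.53, was called neither over all libraries (edgeR adjusted p = 0.257) nor without the 6 (-1.29, edgeR adjusted p = 0.106), but was called without the 3 (-1.8, edgeR adjusted p = 0.0216) and with limma voom (-1.8, adjusted p = 0.00114).

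Timp3, an inhibitor bound to the matrix that also blocks ADAMTS aggrecanases (ENSMUSG00000020044, chr10:86300372-86349506), had 536, 558 and 628 CPM in mutant and 1318, 1428 and 2019 CPM in wild-type ears at 1 month. Day 5 levels were 282, 380 and 632 CPM in mutant and 984, 1103 and 1317 CPM in wild-type ears. No mutant library reached the wild-type range at either time, and replicates 1 and 3 were the highest day 5 mutants. Log2 fold changes were -1.43 ± 0.16 at 1 month (edgeR adjusted p = 1.66e-07) and -1.37 ± 0.16 at day 5 (edgeR adjusted p = 5.27e-07), and their difference was -0.06 ± 0.22 (edgeR adjusted p = 0.958). Syn3, which overlaps Timp3 on the opposite strand at a mean of 2.33 CPM against 918.9 CPM for Timp3, also fell at 1 month (-1.67 ± 0.35, edgeR adjusted p = 0.000401).

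Timp4 (ENSMUSG00000030317, chr6:115241892-115252205), the inhibitor known for the most restricted expression, had 4.61, 7.24 and 7.85 CPM in mutant and 18.8, 33.4 and 54.6 CPM in wild-type ears at 1 month. Levels at day 5 were 9.14, 12.5 and 28.9 CPM in mutant and 15.6, 18 and 26.4 CPM in wild-type ears. The groups did not overlap at 1 month, and at day 5 mutant replicates 1 and 3 lay above the wild-type range and the other 4 below it. The log2 fold change was -2.41 ± 0.28 at 1 month (edgeR adjusted p = 3.07e-07) and -0.18 ± 0.27 at day 5 (edgeR adjusted p = 0.633), a difference of -2.23 ± 0.39 (edgeR adjusted p = 0.000509). Syn2, which overlaps Timp4 on the opposite strand, was higher at 1 month (0.68 ± 0.19, edgeR adjusted p = 0.00504).

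Timp2 (ENSMUSG00000017466, chr11:118301069-118355740), which with Mmp14 takes part in activating proMmp2, had 537, 711 and 1078 CPM in mutant and 732, 881 and 1463 CPM in wild-type ears at 1 month. It had 461, 516 and 691 CPM in mutant and 820, 897 and 974 CPM in wild-type ears at day 5. The groups overlapped at 1 month and not at day 5. It was lower at day 5 (-0.74 ± 0.17, edgeR adjusted p = 0.00136) and at 1 month did not pass (-0.37 ± 0.17, edgeR adjusted p = 0.0841). Leaving out the 6 (-0.50, edgeR adjusted p = 0.01) or the 3 libraries (-0.62, edgeR adjusted p = 0.00561), or wild-type replicate 1 (-0.45), mutant replicate 1 (-0.44) or mutant replicate 6 (-0.55) of 1 month, brought a call.

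Levels per kb of exon, with all annotated exons of a gene merged, allow a rough comparison between genes. The merged length may differ from that of the transcripts expressed. On this scale Timp2, Mmp2 and Timp3 were the 3 most abundant members in mutant and wild-type ears at 1 month and in wild-type ears at day 5. In mutant ears at day 5 the order was Timp2 (137 CPM per kb), Mmp2 (112), Mmp3 (60.7), Timp1 (59.4) and Timp3 (53), of which the last 3 lay within their spread between libraries. In mutant ears at 1 month Mmp2 averaged 268, Timp2 194, Timp3 70.8, Mmp14 55.8, Mmp3 47.4 and Timp1 45.1 CPM per kb, against 153 for Mmp2, 250 for Timp2, 190 for Timp3, 33.3 for Mmp14, 24.2 for Mmp3 and 8.32 CPM per kb for Timp1 in wild-type ears. The summed level of all Mmp genes ranged over 294.4, 377 and 680 CPM per kb (lowest, median and highest) in mutant and 200.4, 240.8 and 318.4 CPM per kb in wild-type ears at 1 month, and over 191.6, 258.5 and 289.2 CPM per kb in mutant and 248.1, 274.3 and 308.4 CPM per kb in wild-type ears at day 5. For the 4 Timp genes the sums were 230.5, 287.4 and 419.3 CPM per kb in mutant and 357.6, 435.3 and 647.9 CPM per kb in wild-type ears at 1 month, and 225.3, 243.7 and 286 CPM per kb in mutant and 339, 378.7 and 421.5 CPM per kb in wild-type ears at day 5. The Adamts sums were lower and overlapped between genotypes, with medians of 80.1 CPM per kb in mutant and 65 CPM per kb in wild-type ears at 1 month and 88.8 CPM per kb in mutant and 87.4 CPM per kb in wild-type ears at day 5. At day 5 the Timp sums of mutants were all below those of wild types, and the Mmp sums overlapped at both times. No test was made on these sums.

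**Figure D4:**
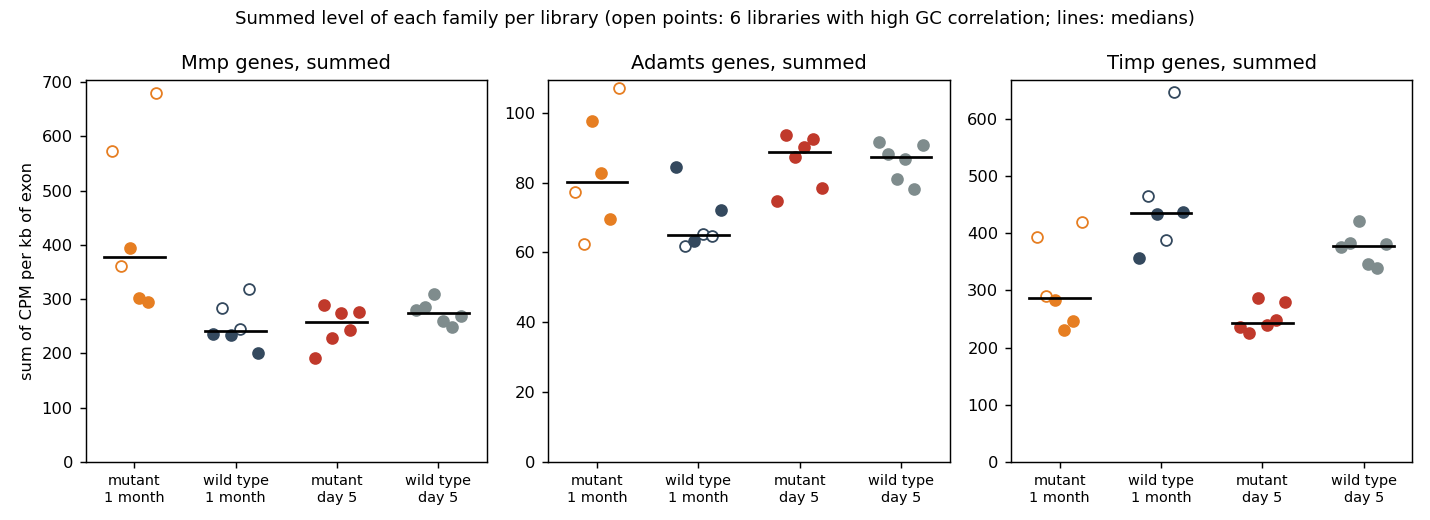
Summed level of the 23 Mmp, 19 Adamts and 4 Timp genes in each library, in CPM per kb of exon, by genotype and time. Points are libraries, lines are medians, and open points mark the 6 libraries of 1 month with a GC correlation above 0.3, among them the highest Mmp sum of mutants, 680, and the highest Timp sum of wild types, 647.9.

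By direction, 12 members were higher at both times and 3 lower at both, beside 16.5% and 13.3% of all genes tested. Another 5 members were higher at 1 month and lower at day 5, beside 0.908% of all genes. These 5, Mmp2, Mmp23, Adamts2, Adamts12 and Adamts18, were each called in the interaction. Under some alternatives Adamts12 and Adamts18 lost their day 5 call, and Mmp23 its 1 month call. Another 5 of the 17 interaction calls, Adamts10, Adamts17, Adamts20, Mmp16 and Mmp27, were not called at 1 month and lower at day 5. The interaction of Adamts10 (0.71) lost its call without 1 of wild-type replicates 1, 3 and 5 or mutant replicates 3, 4 and 6 of 1 month, or wild-type replicates 1 to 4 or mutant replicates 2, 4 and 5 of day 5, down to 0.55. That of Adamts20 (1.48) was lost without 1 of wild-type replicates 2 to 6 or mutant replicates 3 and 4 of 1 month, or wild-type replicates 1 to 4 and 6 or mutant replicates 1, 2, 4, 5 and 6 of day 5, down to 1.02. That of Mmp27 (1.27) was lost without 1 of wild-type replicates 2, 3, 4 and 6 or mutant replicates 2, 3 and 4 of 1 month, or wild-type replicates 1 to 4 and 6 or mutant replicates 1 to 4 of day 5, down to 1.13. Adamts5, not called in the interaction (-1.05 ± 0.37, edgeR adjusted p = 0.0779), was called without wild-type replicate 3 of day 5 (-1.19) or wild-type replicate 2 (-1.16), mutant replicate 3 (-1.21) or mutant replicate 4 (-1.18) of 1 month.

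**Figure D5:**
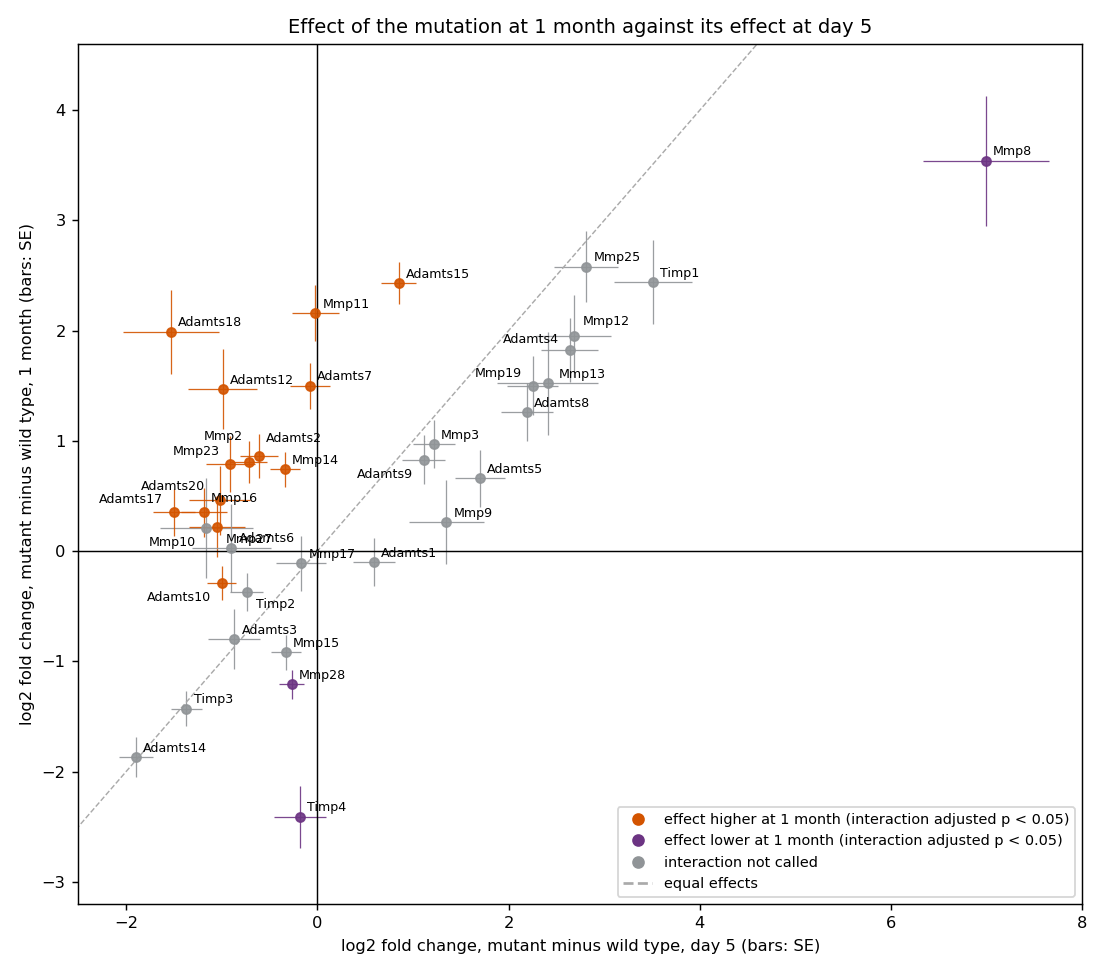
Log2 fold change at 1 month (vertical axis) against that at day 5 (horizontal axis), mutant minus wild type, for the 37 tested members, with standard errors. Colours mark calls in the interaction test and the dashed line marks equal effects. Adamts18 and Adamts12 lie upper left, at 1.99 and 1.47 at 1 month and -1.53 and -0.99 at day 5, while Timp4 and Mmp28 lie below the line. Both axes use separate libraries.

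Of 17 matrix substrate genes tested, 9 were higher and 3 lower at 1 month and 1 was higher and 10 lower at day 5, with medians of 0.79 and -0.98. In the interaction 10 were higher and 0 lower, beside 4.68% and 4.09% of all genes. At 1 month tenascin C (Tnc, 2.88 ± 0.32), von Willebrand factor (Vwf, 1.00 ± 0.18) and type III collagen (Col3a1, 1.3 ± 0.24) were higher, and Acan (-1.82 ± 0.21), Comp (-1.38 ± 0.21) and decorin (Dcn, -0.69 ± 0.22) were lower. At day 5 Tnc was higher (1.99 ± 0.31), and elastin (Eln, -1.73 ± 0.22), Col5a1 (-1.70 ± 0.24) and Col7a1 (-1.51 ± 0.22) were lower. Interaction calls included the fibrillar collagens Col1a1 (2.86 ± 0.39), Col5a1 (2.5 ± 0.33) and Col1a2 (2.49 ± 0.34). Fibroblast markers were higher for 6 and lower for 2 of 10 at 1 month, and higher for 1 and lower for 4 at day 5. Their sums were 2357 to 4504 CPM in mutant and 1896 to 3081 CPM in wild-type ears at 1 month, and 1483 to 2191 CPM in mutant and 2244 to 2848 CPM in wild-type ears at day 5. Cartilage markers were lower for 7 of 9 at 1 month and 9 of 9 at day 5. Smooth muscle and pericyte markers were higher for 3 and lower for 1 of 6 at 1 month and lower for 1 at day 5. Endothelial markers were higher for 2 of 6 at 1 month and higher for 1 and lower for 1 at day 5. Over all genes 25.5% were higher and 21.5% lower at 1 month, and 20.7% and 20.2% at day 5. Basal keratinocyte markers were higher for 3 and lower for 3 of 7 at 1 month and higher for 2 and lower for 2 at day 5, while all 8 wound keratinocyte markers were higher at both times. The part of cell numbers in the values of Mmp2, Mmp11, Adamts2 and the others was not tested.

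The protease control list also holds heparanase and cathepsins, which are themselves enzymes. Of its 18 tested genes, 12 were higher and 4 lower at 1 month, beside 25.5% and 21.5% of all genes. At day 5, 5 were higher and 5 lower, beside 20.7% and 20.2%. At 1 month heparanase (Hpse, 1.14 ± 0.13) and the cathepsins Ctss (1.52 ± 0.19) and Ctsk (1.22 ± 0.17) were higher. The broad protease inhibitor alpha-2-macroglobulin (A2m, -2.64 ± 0.22), the testican Spock2 (-1.72 ± 0.19) and the proprotein convertase Pcsk6 (-1.14 ± 0.14) were lower. At day 5 the urokinase gene Plau (1.17 ± 0.14), its receptor Plaur (2.93 ± 0.35) and Ctss (1.14 ± 0.18) were higher, and A2m (-1.78 ± 0.21), Pcsk6 (-1.36 ± 0.14) and the membrane-anchored MMP inhibitor Reck (-0.94 ± 0.16) were lower. All of these passed the edgeR test.

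The ADAMTS-like proteins, matrix proteins that share domains with ADAMTS but lack the protease, were lower for 6 of 7 genes and higher for 0 at either time. Of all genes tested, 21.5% were lower and 25.5% higher at 1 month, and 20.2% lower and 20.7% higher at day 5. Papilin (Papln) was lower by -1.83 ± 0.16 at 1 month and -1.12 ± 0.16 at day 5. Adamtsl3 (-1.31 ± 0.19) and Adamtsl4 (-0.68 ± 0.14) followed at 1 month, and Adamtsl5 (-0.95 ± 0.13) and Adamtsl2 (-1.79 ± 0.27) at day 5. Of 8 ADAM sheddase genes tested, 2 were higher at 1 month, a share near the 25.5% of all genes. These were Adam12 (2.54 ± 0.28) and the leukocyte sheddase Adam8 (1.38 ± 0.22). At day 5 Adam8 was higher (2.66 ± 0.23) and Adam33 lower (-0.61 ± 0.16), beside 20.7% and 20.2% of all genes.

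In wild-type ears alone, 1 month against day 5, the members were called about as often as all genes, 1 higher and 3 lower (10.8% of members and 9.09% of all genes, of which 6.28% were higher and 2.81% lower). Over all genes 1086 were higher and 486 lower, and with total counts only the split was 1518 and 346. Adamts17 was lower at 1 month, with 2.11, 3.49 and 4.2 CPM at 1 month and 5.29, 5.94 and 7.64 CPM at day 5, without overlap (-0.88 ± 0.21, edgeR adjusted p = 0.00967). Adamts3 (-0.91 ± 0.27, edgeR adjusted p = 0.034), Adamts15 (-0.58 ± 0.18, edgeR adjusted p = 0.044) and, upward, Timp4 (0.91 ± 0.27, edgeR adjusted p = 0.0363) were also called. The call of Adamts3 was lost without 1 of wild-type replicates 2, 3 and 4 of 1 month or 1, 2, 3, 4 and 6 of day 5 (-0.75 at the smallest). The Timp4 call was lost without 1 of wild-type replicates 2, 3, 5 and 6 of 1 month or 1, 2, 4, 5 and 6 of day 5 (0.75 at the smallest). For Adamts15 it was lost without 1 of wild-type replicates 3 to 6 or mutant replicates 3 and 4 of 1 month, or wild-type replicates 1, 2, 3, 5 and 6 or mutant replicates 2 to 5 of day 5 (-0.51 at the smallest). Without the 6 libraries neither Timp4 (0.77, edgeR adjusted p = 0.212) nor Adamts15 (-0.52, edgeR adjusted p = 0.0704) was called, while Mmp2 (-0.44, against -0.27 over all libraries) and Adamts2 (-0.54, against -0.32) were. Without the 3 libraries above 0.4, Mmp9 (1.0, against 0.99), Mmp12 (1.07, against 0.87) and Timp3 (0.55) were called. Over all libraries Timp3 missed the threshold (0.47 ± 0.16, edgeR adjusted p = 0.0622), and passed it without wild-type replicate 1 or mutant replicate 6 of 1 month, or wild-type replicate 3 or mutant replicate 2 or 3 of day 5 (up to 0.56). These wild-type libraries also serve in the genotype comparisons.

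The 9 members that did not pass the filter were read at few counts. Adamts19 had 69 counts over the 6 mutant and 24 over the 6 wild-type libraries at 1 month, and 11 in mutant and 31 in wild-type libraries at day 5. Adamts16, with a highest level of 1.91 CPM, had 53 counts in mutant and 9 in wild-type libraries at 1 month. At day 5 it had 0 in mutant and 61 in wild-type libraries. In the 1 month mutants replicate 1 had 1.51 CPM, and no other exceeded 0.389 CPM. Wild-type replicates 2 and 3 of day 5 had 1.91 and 1.15 CPM, and no other of that group exceeded 0.289 CPM. Mmp1a and Mmp1b are near copies, mouse counterparts of the human interstitial collagenase, and their counts are uncertain because reads may have been split between them. Mmp1a had 7 counts in mutant and 0 in wild-type libraries at 1 month, and 0 in mutant and 3 in wild-type libraries at day 5, while Mmp1b had 13 in mutant and 15 in wild-type libraries at 1 month, and 47 in mutant and 14 in wild-type libraries at day 5. Mmp24 and Adamts13, the von Willebrand factor protease, had at most 49 and 26 counts in a group. Mmp7, Mmp20 (enamelysin, a tooth enzyme) and Mmp21 had at most 1, 2 and 0.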

How the data were processed

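Values in the deposited table are RSEM expected counts of Ensembl genes, per the file headers, without scaling. The submitters' processing notes name STAR 2.5.2, RSEM 1.3.0, DESeq2 1.14.1 and build GRCm38. The annotation and the strand setting of the counting are not given in these sources. Values were rounded (6.71% were not whole). Symbols, coordinates and exon lengths came from GENCODE M21 (GRCm38), which held 51719 of 51912 identifiers, and promoters from RefSeq.

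Genes passing filterByExpr by group (17287) were scaled by TMM and fitted over all 24 libraries, 1 coefficient per group, with the robust quasi-likelihood test of edgeR 4.0.16 (R 4.3.3), two-sided, Benjamini-Hochberg adjusted over all genes in each of 4 comparisons. The SE is the log2 fold change over the square root of F. The fit was tested on simulated data.

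Members and lists were chosen with earlier results of these data known. Full values are given for the 10 members with the smallest adjusted p in each genotype comparison and the 5 in the other comparisons, at a mean of at least 1 CPM in a group compared, and for every Timp gene; up to 3 genes per pathway list and direction are named. Further members were named after their values were seen.

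Lists covered protease control, ADAMTS-like, ADAM sheddase and matrix substrate genes, and markers of neutrophils, monocytes and macrophages, fibroblasts, cartilage, basal and wound keratinocytes, endothelium, and smooth muscle and pericytes. No pair of libraries of a group repeated another (smallest chi-square per degree of freedom 5.13). The replicate numbers of the labels did not pair the libraries. Alternatives were RLE factors, total counts, DESeq2 1.42.0, limma 3.58.1 voom with weights, other filters, a fit that is not robust, only the libraries compared, a replicate block, and each library left out. Leaving out 3 or 6 libraries and a GC covariate were chosen after seeing the data.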

Additional observations from a re-analysis of the deposited data

Results flagged for a closer look

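In groups of 6 libraries, a value that lay apart from the other 5 by more than 0.625 of the group's range (Dixon's criterion) was found in 6 of 148 groups, where chance gives about 1 in 20. Mutant replicate 3 of day 5 was high for Adamts20 (2.86 CPM) and Adamts6 (4.19 CPM). Mutant replicate 6 of 1 month was high for Adamts7 (17.3 CPM) and Adamts8 (6.52 CPM), and is among the libraries with a high GC correlation. Wild-type replicate 5 of day 5 was low for Mmp3 (29.9 CPM), and wild-type replicate 4 of 1 month was high for Mmp8 (0.436 CPM).

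The mutant effect at 1 month minus that at day 5, on the log2 scale, passed edgeR's interaction test at an adjusted p below 0.05 in 17 members. It was positive for Adamts18 (3.52), Adamts12 (2.46), Mmp11 (2.18), Adamts17 (1.85), Mmp23 (1.71), Adamts15 (1.58), Adamts7 (1.57), Mmp16 (1.54), Mmp2 (1.52), Adamts2 (1.48), Adamts20 (1.48), Mmp27 (1.27), Mmp14 (1.08) and Adamts10 (0.71). It was negative for Mmp8 (-3.45), Timp4 (-2.23) and Mmp28 (-0.94).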

How the results depend on the processing

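Of the members called, 22 of 26 at 1 month, 25 of 28 at day 5, 13 of 17 in the interaction and 1 of 4 in the wild-type time comparison kept their call under every alternative in which they were tested. Values of 2 members changed sign with a call: Adamts6 at 1 month was -0.58 with the GC covariate (adjusted p = 0.04), and Mmp9 at 1 month was -0.74 with limma voom (adjusted p = 0.0336). Members called in the wild-type time comparison numbered 7 without the 3 libraries, 7 with DESeq2 and 18 with voom, against 4. All genes called numbered 11699 with voom at day 5. In the interaction they numbered 2827 without the 6 libraries, 2682 with the GC covariate and 8217 with voom, and in the wild-type time comparison 989 without the 6 libraries, 2472 with DESeq2, 8227 with voom and 1019 with the replicate block. Leaving out each library gave 25 to 27 members and 7640 to 8243 genes called at 1 month, 26 to 29 members and 6137 to 7539 genes at day 5, 13 to 18 members and 1191 to 1731 genes in the interaction, and 1 to 6 members and 937 to 3026 genes in wild types. The replicate block gave 19 higher and 6 lower members at 1 month, 14 and 14 at day 5, 11 and 2 in the interaction and 0 and 3 in wild types; same-numbered libraries correlated at -0.8 to 0.31 in their deviations and 3 of 24 correlated best with their own number. RLE factors split the wild-type calls into 1457 higher and 374 lower, and no scaling moved the median of all genes by over 0.1. The causes were not tested. Members under 1 CPM, such as Mmp10 and Mmp8 in wild types, rest on few counts.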
